A study of Mus musculus with 6 samples.

Results

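Chemokines and their receptors were followed across 6 primary osteosarcomas of mice, 3 of them Cd44+/+ and 3 Cd44-/-. The members were taken by gene symbol. They are the protein-coding genes among the 39179 counted Ensembl genes whose symbols follow the pattern of the CC, CXC, CX3C and XC chemokines and of their receptors, without Cxcl9 and Cxcl10. This gave 56 genes, of which 35 encode ligands, 17 G protein-coupled receptors and 4 atypical receptors (Ackr1 to Ackr4). The rule used symbols and annotation alone, but it was chosen with earlier results of these data known. Cxcl11, the one other symbol that follows the pattern, is annotated as other than protein-coding and was not a member.

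All 6 mice were of a mixed C57BL/6 x 129/Sv x FVB background and carried 1 mutated copy of the tumor suppressor gene Nf2 (Nf2Δ2/+), the mutation from which the bone tumors of this model arise. The groups differed in Cd44, the gene of a hyaluronan receptor on the cell surface. The mice No244, No316 and No368 were Cd44+/+, and the mice No203, No279 and No364 were Cd44-/-. The genotype is that of the mouse, so that it covers tumor cells and host cells alike, and each mouse gave 1 library. The study's methods describe tumor tissue, while the extraction text of the labels speaks of cell lines, and age and treatment are not given in the sources used here. Taken as whole tissue, as in the methods, fewer cells of a type and less RNA per cell cannot be told apart in any value below.

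Chemokines are small secreted proteins that direct the migration of leukocytes along a concentration gradient. Their family names come from the spacing of conserved cysteines near the amino terminus. They bind to proteoglycans of the matrix and act on G protein-coupled receptors, and many ligands share a receptor. Atypical receptors bind chemokines without activating G proteins and remove or transport them. In bone, the pair of CXCL12 and CXCR4 holds hematopoietic cells in the marrow, CCL2 calls monocytes through CCR2, and osteoclasts, the bone-resorbing cells of the macrophage lineage, secrete CCL9 and carry CCR1.

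Total counts lay between 18076388 and 26954142 per tumor, and 3 counts, taken as the smallest detectable level, corresponded to 0.0990 to 0.252 CPM (counts per 1000000 counts of the library, with library sizes scaled by the TMM factors of edgeR). Lists of 3 values below follow the order No244, No316, No368 for Cd44+/+ and No203, No279, No364 for Cd44-/- tumors. Cd44 itself was at 137, 243.6 and 240.3 CPM in Cd44+/+ and at 19.2, 15.7 and 61.8 CPM in Cd44-/- tumors. The libraries of No316 and No368 were nearly proportional, with 87.2% of their genes and 27 of 32 members within binomial sampling noise, against 15.8% to 23.9% of the genes in the other pairs. Their mean therefore entered each mean ± SD as 1 sample, so that n = 2 for Cd44+/+. The fold changes, standard errors and p-values beside these means kept No316 and No368 as separate libraries, unless stated otherwise. In No244, 55.2% of the counts were mitochondrial, against at most 12.5% elsewhere. No364 carried 97617 CPM of 7 hepatocyte markers, against 34.6 to 134 in the other tumors. The osteoblast markers Sp7, Ibsp and Alpl were at least at 192 CPM in No244, No316, No368 and No203, whereas none exceeded 19.6 in No279 and No364, so that these 2 tumors lacked the osteoblast pattern of their label. Xist was between 859 and 1242 CPM in the other 4 tumors and below 1 CPM in No279 and No364, in which the Y-linked gene Ddx3y was at 18.9 and 22.5 CPM. The part of these differences in the values below was not tested, except where a value without the library is given.

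Ccl9 had the highest mean level of the chemokine transcripts. Per kilobase of exon it averaged 77.9 CPM over the 6 tumors, followed by Cxcl12 with 18.6, Cxcl16 with 17.8, Ccl2 with 17.7 and Cxcl14 with 17.6. The order was not the same in every tumor, since Ccl9 was at 10.8 and 10.3 CPM per kilobase in No316 and No368, below Cxcl16 with 30.8 and 31.6 and Cxcl14 with 22.2 and 23.7. The leading receptors by mean on the same scale were Ccr1 with 15.6, Cxcr4 with 10.3, Ackr3 with 10.1 and Cx3cr1 with 5.95 CPM per kilobase. The ligands behind Ccl9 lay within the spread between tumors of one another. Ccl2, for instance, ranged from 0.443 to 72.4 CPM per kilobase and Cxcl12 from 2.75 to 34.99. Summed over all 35 ligands, the level was 551, 235 and 239.5 CPM in the Cd44+/+ and 856, 1180.0 and 532 in the Cd44-/- tumors, and No244 lay between the Cd44-/- tumors. The receptors summed to 135, 228 and 232 CPM in Cd44+/+ and to 168, 332 and 105 in Cd44-/- tumors, with overlap as well.

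**Figure D1:**
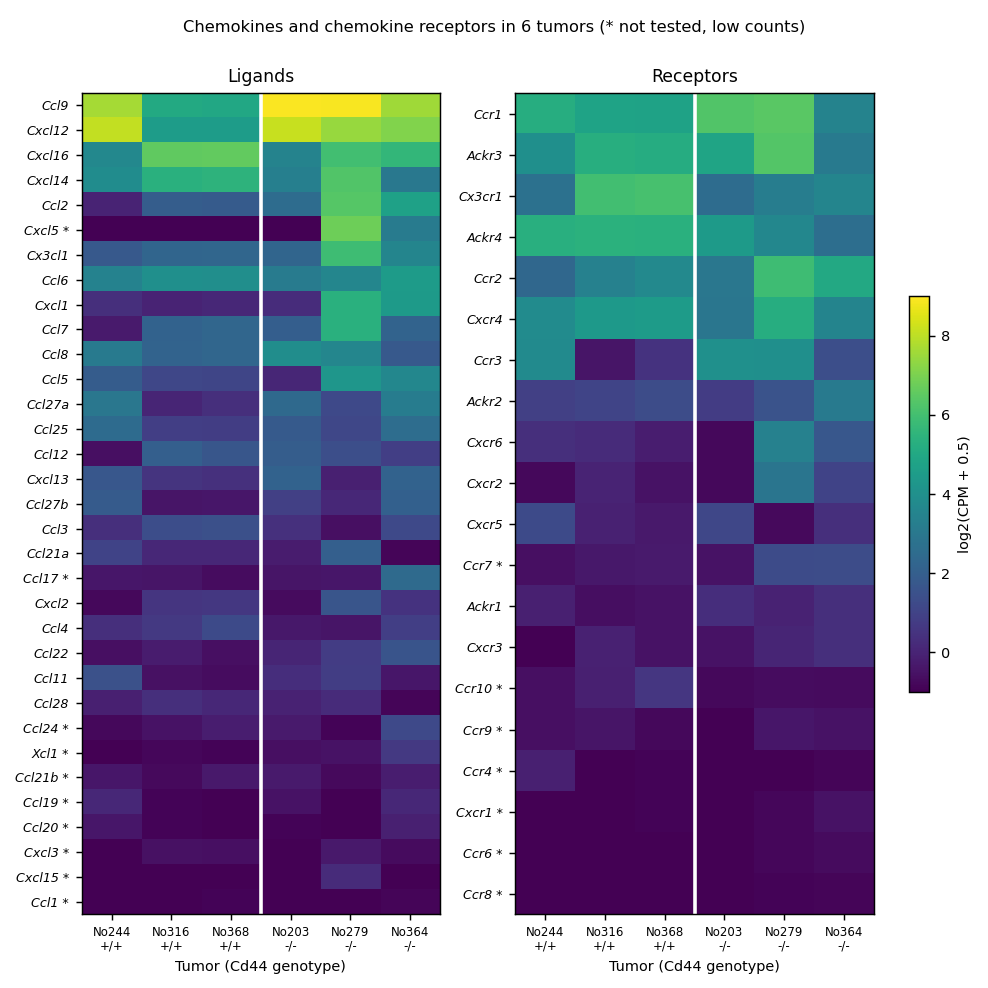
Heatmap of log2(CPM + 0.5) for the 33 ligands and 20 receptors with at least 1 count that are reported here, 1 column per tumor (Cd44+/+ left of the white line) and 1 row per gene in the order of mean CPM. Asterisks mark genes with too few counts for the test. No316 and No368 look alike, and Cxcl5 is brightest in No279, at 110.4 CPM.

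The genotypes were compared for the 37 members, 23 ligands and 14 receptors, that passed the low-count filter of edgeR, which keeps genes with enough counts in at least as many libraries as the smaller group has. No member differed at an adjusted p under 0.05 by edgeR's quasi-likelihood test, as was the case for all 16839 genes tested (0% called). At an unadjusted p under 0.05 there were 4 members higher in Cd44-/- tumors (Ccl2, Ccl22, Cx3cl1 and Cxcl1), where 6.44% of all genes were called in this direction. The members lower at this threshold were 2, Ackr4 and Cx3cr1, beside 4.31% of all genes. The genotypes did not overlap for Ccl2, Ccl22 and Ackr1, which were higher in every Cd44-/- tumor, and for Ackr4, which was lower. Among all genes tested 9.49% were apart in the first and 9.57% in the second direction, beside 3 and 1 of the 37 members. Ackr1 and Ccl22, with at most 5 and 10 counts in a Cd44+/+ tumor, passed the filter through the Cd44-/- tumors. Their higher values there are therefore not independent of the filter. The median log2 fold change (Cd44-/- minus Cd44+/+) was 0.78 over the ligands and 1.01 over the receptors, beside 0.11 over all genes. These medians leave out the members that did not pass the filter. With No316 and No368 summed as 1 sample they were 0.43 and 0.88, beside 0.12 over all genes. The Wald test of DESeq2 called 2 members, Cxcl1 (adjusted p = 0.00309) and Ccl2 (adjusted p = 0.0196), where it called 2.33% of all genes, and limma-voom called none. With No316 and No368 summed, DESeq2 still called Cxcl1 (adjusted p = 0.0465) but not Ccl2 (adjusted p = 0.0879) in an alternative that was added after seeing the data and that called 0.797% of all genes. The counts of members depended on single tumors. Without No203, 10 members were higher at an unadjusted p under 0.05, beside 9.79% of all genes tested in that setting, and 13 had genotypes apart in this direction, beside 18.7%. Without No244 these counts were 8 (beside 5.87%) and 11 (beside 19.9%), and 6 members were apart in the lower direction (beside 19.8%). Without No364, 7 were apart with higher values in Cd44-/- tumors (beside 15%) and 3 with lower values (beside 13.7%). Without No279 the numbers were 4 (beside 14.7%) and 5 (beside 14.7%). With fewer libraries, more genes are apart by construction.

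**Figure D2:**
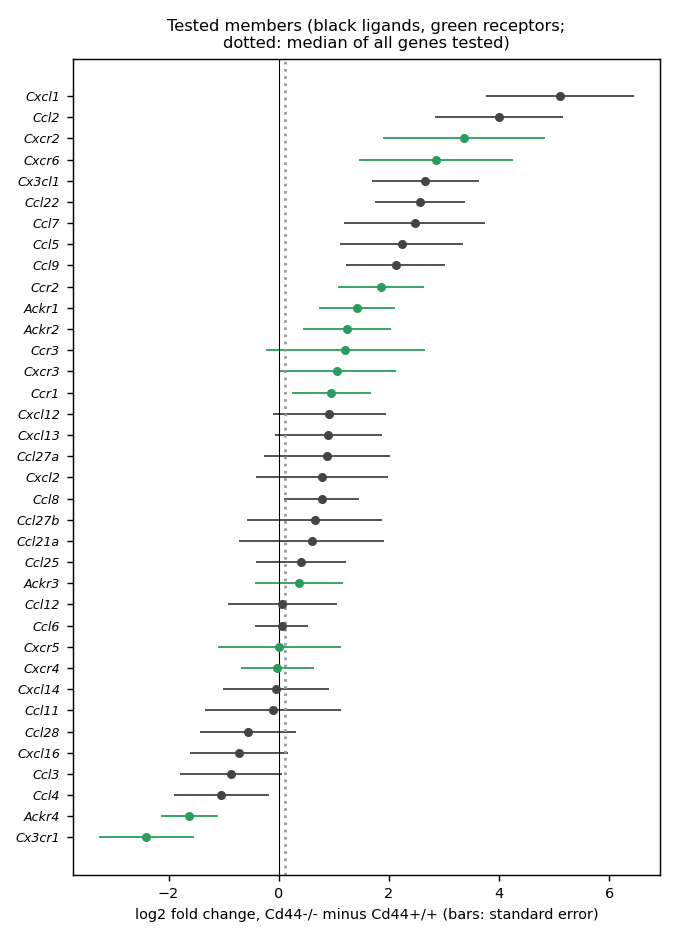
Log2 fold change (Cd44-/- minus Cd44+/+, x axis) of 36 tested members, with its standard error as a bar. Ligands are black, receptors green, and the dotted line is the median of all genes tested (0.11). The extremes are Cxcl1 at 5.10 and Cx3cr1 at -2.40.

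The ligands of CXCR2, the receptor that draws neutrophils out of the blood, differed widely between tumors. Cxcl1 (ENSMUSG00000029380, chromosome 5 from 90891241 to 90893115, plus strand, GRCm38) was at 0.756 CPM in No244, 0.487 in No316 and 0.588 in No368 (Cd44+/+), and at 0.714 in No203, 40.6 in No279 and 21.3 in No364 (Cd44-/-). No279 and No364 thus exceeded every other tumor, while the remaining Cd44-/- tumor, No203, lay within the range of the Cd44+/+ tumors. The means were 0.647 ± 0.155 CPM (SD, n = 2) for Cd44+/+ against 20.9 ± 19.9 CPM (SD, n = 3) for Cd44-/-, and the difference was about as large as the SD of the Cd44-/- tumors (log2 fold change 5.10, standard error 1.34, adjusted p = 0.452 by edgeR's quasi-likelihood test). Cxcl5 (ENSMUSG00000029371, chromosome 5 from 90759360 to 90761624, plus strand) had 0 counts in the 3 Cd44+/+ tumors and in No203, but 3344 in No279 and 160 in No364. Against 3 counts in the shallowest of the libraries at 0, this was at least 438-fold higher in No279 and at least 33.2-fold higher in No364. Cxcl5 did not pass the filter, and DESeq2, which does not apply it, gave an adjusted p of 0.0696.

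The other genes of the same cluster on chromosome 5 were much lower than Cxcl1 and Cxcl5 in No279 and No364, while in No316 and No368 Cxcl2 lay above both. Cxcl2, which encodes a further CXCR2 ligand released early in inflammation, was at 0.0840, 0.938 and 1.05 CPM in Cd44+/+ and 0.119, 2.64 and 0.890 in Cd44-/- tumors, with the highest value again in No279 but with No316 and No368 above No364. Cxcl3 had 0, 5 and 4 counts in Cd44+/+ and 0, 9 and 2 in Cd44-/- tumors. Cxcl15, a chemokine of lung epithelium, was counted 20 times in No279 and not in any other tumor, where 0 counts allow up to 0.252 CPM. Together the 4 CXCR2 ligands Cxcl1, Cxcl2, Cxcl3 and Cxcl5 reached 0.840, 1.60 and 1.81 CPM in Cd44+/+ and 0.833, 154 and 30.7 in Cd44-/- tumors. The receptor followed the same order in its highest tumors. Cxcr2 was counted 210 times in No279 and 29 times in No364, which is 6.93 and 1.52 CPM, and at most 14 times elsewhere (log2 fold change 3.36, standard error 1.47, adjusted p = 0.462 by edgeR's quasi-likelihood test). The fold change of Cxcr2 was 1.51 without No279. Cxcr1, its close relative, had 0, 0 and 1 counts in Cd44+/+ and 0, 2 and 4 in Cd44-/- tumors.

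Promoters of the 3 neighbouring genes Cxcl1, Cxcl2 and Cxcl3 are shown because they carry the same kappa-B match at nearly the same place, although Cxcl1 was far above the others in No279 and No364. The sequences are the 250 bases before the transcription start from RefSeq (GRCm38.p6), written 5′ to 3′ on the strand of the gene. Capitals mark matches to the kappa-B consensus of the NF-kB factors, searched on both strands, and in Cxcl3 also the CD44ICD response element (CIRE, CCTGCG on either strand).
Cxcl1, chr5:90890995-90891244, plus strand: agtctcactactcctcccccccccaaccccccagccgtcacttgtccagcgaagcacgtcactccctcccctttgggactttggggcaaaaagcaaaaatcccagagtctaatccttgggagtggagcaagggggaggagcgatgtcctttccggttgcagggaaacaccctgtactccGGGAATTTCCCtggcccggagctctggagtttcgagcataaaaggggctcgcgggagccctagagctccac
Cxcl2, chr5:90903649-90903898, plus strand: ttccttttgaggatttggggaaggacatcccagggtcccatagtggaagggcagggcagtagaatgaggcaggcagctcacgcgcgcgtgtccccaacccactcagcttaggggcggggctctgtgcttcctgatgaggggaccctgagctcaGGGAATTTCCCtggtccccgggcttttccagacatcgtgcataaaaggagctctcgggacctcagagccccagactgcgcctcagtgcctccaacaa
Cxcl3, chr5:90785851-90786100, plus strand: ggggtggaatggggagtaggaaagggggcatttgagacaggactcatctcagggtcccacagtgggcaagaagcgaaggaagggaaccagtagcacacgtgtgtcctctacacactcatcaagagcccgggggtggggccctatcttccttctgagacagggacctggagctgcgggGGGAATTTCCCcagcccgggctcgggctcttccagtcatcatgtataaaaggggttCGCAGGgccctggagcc
The matches of the 2 strands overlap and were taken as 1 site, which begins 71 bases before the start of Cxcl1, 97 before that of Cxcl2 and 73 before that of Cxcl3. The bases after the RefSeq start were found in an annotated transcript for Cxcl1 and Cxcl3 but not for Cxcl2, so the distance for Cxcl2 is less certain. Promoters were found for 42 of the 56 members, and 36 of the 42 passed this check. The start nearest to the annotated gene held a kappa-B match in 9 of the 42 (Ackr2, Ccl1, Ccl20, Ccl9, Ccr1, Ccr3, Cxcl1, Cxcl2 and Cxcl3). Counted over all RefSeq starts of a gene, the match was present for 10 of the 42 members, where 8.23% of the 27025 genes of the table held it.

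Neutrophil markers were examined beside these values. The 8 markers summed to 36.2, 41.8 and 41.9 CPM in Cd44+/+ and 46.7, 104 and 39.9 in Cd44-/- tumors, with No279 highest. S100a8, an abundant neutrophil protein, was at 10.4, 11.4 and 11.04 CPM in Cd44+/+ and 12.6, 31.5 and 13.1 in Cd44-/- tumors. Csf3r, the receptor for the granulocyte growth factor, was at 3.53, 7.54 and 7.64 CPM in Cd44+/+ and 1.23, 21.5 and 5.23 in Cd44-/- tumors. Both were highest in No279, but the list did not move as a whole. Ltf, a granule protein, was at 1.26, 1.04 and 1.51 CPM in Cd44+/+ and 2.93, 0.0660 and 0.523 in Cd44-/- tumors, and Camp, another, at 2.27, 0.904 and 0.630 CPM in Cd44+/+ and 7.93, 0 and 0.523 in Cd44-/- tumors, both lowest in No279. Retnlg, which mature neutrophils express, was at 1.93, 3.96 and 3.32 CPM in Cd44+/+ and 0.991, 1.52 and 1.41 in Cd44-/- tumors and so lower in every Cd44-/- tumor. Ly6g, which defines mouse neutrophils, had no more than 2 counts in any tumor. Of 22 NF-kB and inflammatory inducer genes, all tested, 18 had a log2 fold change above 0 and 4 below, 0 passed the adjusted threshold, and the median was 0.45 beside 0.11 over all genes. Their summed level was 524, 318 and 319 CPM in Cd44+/+ and 425, 832 and 419 in Cd44-/- tumors. The part of infiltrating cells or of the missing osteoblast pattern in the chemokine levels of No279 and No364 was not tested.

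In the monocyte axis the ligand Ccl2 separated the genotypes, while its receptor did not. Ccl2, the main ligand of CCR2 (ENSMUSG00000035385, chromosome 11 from 82035571 to 82037453, plus strand), was at 0.504 CPM in No244, 3.34 in No316 and 3.19 in No368 (Cd44+/+), and at 5.31 in No203, 82.4 in No279 and 25.8 in No364 (Cd44-/-). Every Cd44-/- tumor lay above every Cd44+/+ tumor, with No203 nearest to them and No279 3.19 times as high as the next tumor. The means were 1.88 ± 1.95 CPM (SD, n = 2) for Cd44+/+ against 37.8 ± 39.9 CPM (SD, n = 3) for Cd44-/- (log2 fold change 3.99, standard error 1.16, adjusted p = 0.452 by edgeR's quasi-likelihood test). When single tumors were left out, the log2 fold change stayed within 2.71 to 4.46. Ccl7, which lies next to Ccl2 on chromosome 11 (ENSMUSG00000035373, chromosome 11 from 82045712 to 82047525, plus strand) and acts on CCR1, CCR2 and CCR3, was at 0.336, 3.96 and 4.37 CPM in Cd44+/+ and 3.49, 40.8 and 4.08 in Cd44-/- tumors. Only No279 stood out for Ccl7, at 9.34 times the next tumor, and the log2 fold change of 2.47 (standard error 1.28) became 0.37 without it. The adjusted p was 0.501 by edgeR.

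The remaining genes of this cluster had their highest value in a tumor other than No279. Ccl8, another CCR2 ligand, was at 8.32, 4.10 and 4.49 CPM in Cd44+/+ and 14.4, 11.5 and 2.98 in Cd44-/- tumors, highest in No203 and No279 and lowest in No364. Ccl12, the ligand closest in function to Ccl2 in the mouse, was at 0.168, 3.61 and 2.69 CPM in Cd44+/+ and 3.41, 2.11 and 1.31 in Cd44-/- tumors and lowest in No244. Ccl11, the eosinophil chemokine eotaxin, was at 2.27, 0.174 and 0.126 CPM in Cd44+/+ and 0.753, 1.25 and 0.262 in Cd44-/- tumors, and Ccl1 had at most 1 count per tumor. Summed over Ccl2, Ccl7, Ccl8 and Ccl12, the CCR2 ligands came to 9.33, 15.01 and 14.7 CPM in Cd44+/+ and 26.6, 137 and 34.2 in Cd44-/- tumors. Ccr2 (ENSMUSG00000049103, chromosome 9 from 124101950 to 124113557, plus strand), which marks inflammatory monocytes, was at 4.54, 9.91 and 12.5 CPM in Cd44+/+ and 7.30, 58.2 and 31.9 in Cd44-/- tumors. Its level was highest in No279 and No364, and No203 lay below No316 and No368 (log2 fold change 1.85, standard error 0.78, adjusted p = 0.46 by edgeR's quasi-likelihood test). The ligand sum and the receptor were therefore both highest in No279, as the plot of ligand sums and receptors shows.

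**Figure D3:**
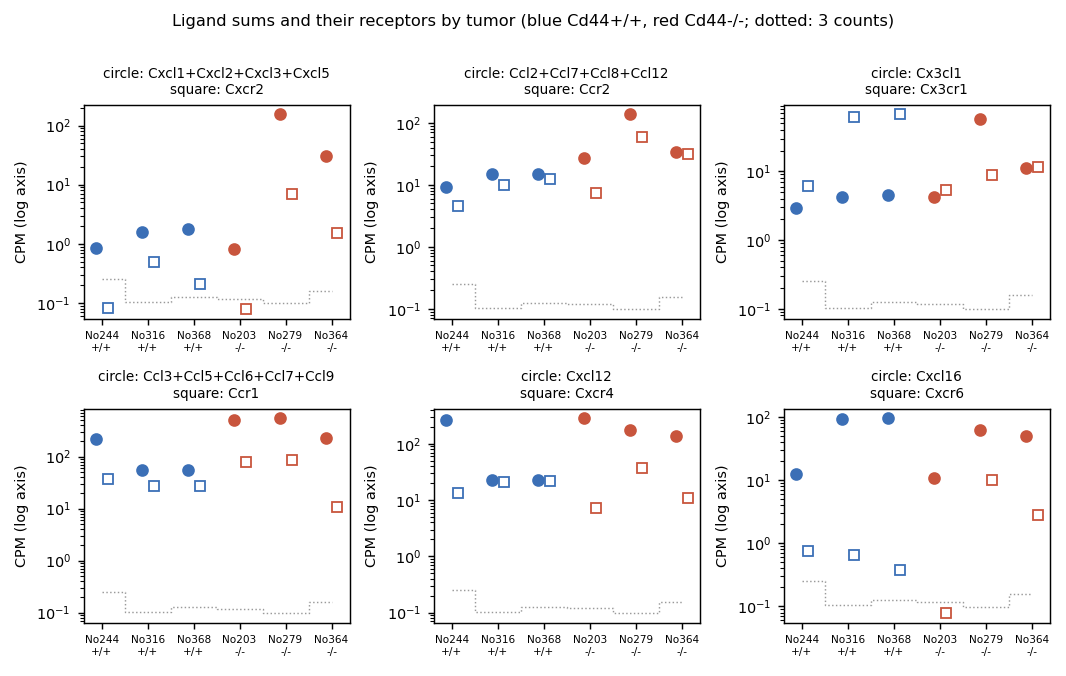
CPM on a log axis for 6 ligand groups (filled circles, summed where several genes are named) and their receptors (open squares) in each tumor, Cd44+/+ in blue and Cd44-/- in red. The dotted line is the level of 3 counts. The CXCR2 ligands reach 154 CPM in No279 and 30.7 in No364 but at most 1.81 in the other tumors.

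Ligand and receptor of the CX3C family differed in opposite directions, without passing the adjusted threshold. Cx3cl1 (ENSMUSG00000031778, chromosome 8 from 94772009 to 94782427, plus strand) encodes fractalkine, which is made as a membrane-bound protein and can be shed. It was at 2.94, 4.28 and 4.45 CPM in Cd44+/+ and 4.24, 58.5 and 11.3 in Cd44-/- tumors, that is 5.18 times as high in No279 as in the next tumor, while No203 lay within the range of the Cd44+/+ tumors (log2 fold change 2.66, standard error 0.97, adjusted p = 0.452 by edgeR's quasi-likelihood test). Without No279 the log2 fold change was 0.99. Its receptor Cx3cr1 (ENSMUSG00000052336, chromosome 9 from 119901616 to 120069879, minus strand), carried by patrolling monocytes and many tissue macrophages, was at 6.13, 61.8 and 67.3 CPM in Cd44+/+ and 5.31, 8.95 and 11.4 in Cd44-/- tumors. It was high in No316 and No368 alone, and the Cd44+/+ tumor No244 lay among the Cd44-/- tumors. The means of 35.3 ± 41.3 CPM (SD, n = 2) for Cd44+/+ against 8.54 ± 3.04 CPM (SD, n = 3) for Cd44-/- lay closer together than 1 SD of the Cd44+/+ samples (log2 fold change -2.40, standard error 0.86, adjusted p = 0.452 by edgeR's quasi-likelihood test). With No316 and No368 summed as 1 sample the log2 fold change was -2.08 (adjusted p = 0.818). A gene on the opposite strand overlaps Cx3cr1, and the strand setting of the counting is not given in the sources used here.

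Macrophage markers were read beside Cx3cr1. The macrophage gene Adgre1 was at 2.60, 55.6 and 56.2 CPM in Cd44+/+ and 3.57, 13.3 and 12.8 in Cd44-/- tumors, and the complement gene C1qa at 23.2, 245 and 253 CPM in Cd44+/+ and 34.3, 57.9 and 86.04 in Cd44-/- tumors, both highest in No316 and No368. C1qb, C1qc, Mrc1 and Fcgr1 of the list were also highest in No316 and No368, whereas Cd68 and Csf1r were not. Cd68, a lysosomal protein of macrophages and osteoclasts, was at 105, 81.2 and 78.9 CPM in Cd44+/+ and 269, 311 and 48.7 in Cd44-/- tumors, and Csf1r, the receptor of their growth factor, at 278, 193 and 198 CPM in Cd44+/+ and 252, 360.0 and 98.02 in Cd44-/- tumors. All 8 macrophage markers summed to 465, 1207 and 1217 CPM in Cd44+/+ and 661, 874 and 459.8 in Cd44-/- tumors, none of them was at 0 in any tumor, and their part in the values of Cx3cr1 was not tested. Among the CC ligands made by activated macrophages and T cells, Ccl3 was at 0.756, 2.05 and 2.23 CPM in Cd44+/+ and 0.793, 0.165 and 1.83 in Cd44-/- tumors and Ccl4 at 0.756, 1.08 and 1.85 CPM in Cd44+/+ and 0.278, 0.231 and 1.31 in Cd44-/- tumors, both lowest in No279. Ccl5, a product of activated T cells and of many stimulated cells, was at 3.28, 1.67 and 1.64 CPM in Cd44+/+ and 0.555, 18.6 and 11.7 in Cd44-/- tumors. It was highest in No279 and No364 but lowest in No203, so that the Cd44+/+ tumors lay between the Cd44-/- tumors (log2 fold change 2.23, standard error 1.12, adjusted p = 0.492 by edgeR's quasi-likelihood test). Markers of T and NK cells were sparse, with a sum of 6.72, 2.33 and 2.73 CPM in Cd44+/+ and 2.38, 6.70 and 15.4 in Cd44-/- tumors for 10 genes, and Gzma and Ncr1 were at 0 in No244 and No368.

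Ccl9, the ligand with the highest mean level (ENSMUSG00000019122, chromosome 11 from 83572919 to 83578636, minus strand), was at 202 CPM in No244, 32.7 in No316 and 31.3 in No368 (Cd44+/+), and at 492 in No203, 474 in No279 and 192 in No364 (Cd44-/-). The low tumors were No316 and No368, whereas No244 lay above the Cd44-/- tumor No364, and so the genotypes overlapped. The means were 117 ± 120.1 CPM (SD, n = 2) for Cd44+/+ against 386 ± 168 CPM (SD, n = 3) for Cd44-/- (log2 fold change 2.12, standard error 0.89, adjusted p = 0.46 by edgeR's quasi-likelihood test). Without No244 the log2 fold change was 3.59, since No316 and No368 alone then stood for Cd44+/+. With these 2 summed as 1 sample beside No244, it was 1.73 (adjusted p = 0.818 by edgeR's quasi-likelihood test). Ccr1 (ENSMUSG00000025804, chromosome 9 from 123962124 to 123968692, minus strand), a receptor of CCL9 on monocytes and osteoclasts, was at 36.6, 27.01 and 26.8 CPM in Cd44+/+ and 77.1, 87.4 and 10.7 in Cd44-/- tumors, highest in No203 and No279 and lowest in No364 (log2 fold change 0.96, standard error 0.72, adjusted p = 0.619 by edgeR's quasi-likelihood test). Ccr3 (ENSMUSG00000035448, chromosome 9 from 124021972 to 124031689, plus strand), the eotaxin receptor of eosinophils, which is also found on cells of the osteoclast lineage, was at 13.4, 0.243 and 0.882 CPM in Cd44+/+ and 15.7, 15.5 and 2.15 in Cd44-/- tumors. No244, No203 and No279 lay close together and all other tumors were lower, with as few as 7 counts in No316 (log2 fold change 1.21, standard error 1.45, adjusted p = 0.758 by edgeR's quasi-likelihood test). Its log2 fold change was 4.30 without No244. The eotaxin genes were low, at 2.35, 0.382 and 0.504 CPM in Cd44+/+ and 1.07, 1.29 and 2.09 in Cd44-/- tumors for the sum of Ccl11 and Ccl24.

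Osteoclast markers, a list chosen after the values of Ccl9 had been seen, were set beside these receptors. The 8 markers summed to 13159, 786 and 784 CPM in Cd44+/+ and 11693, 9676 and 865 in Cd44-/- tumors. They were thus high in No244, No203 and No279 and low in No316, No368 and No364, the same split as for Ccr3. Ctsk, the collagen-degrading protease of osteoclasts, was at 1862, 476 and 468 CPM in Cd44+/+ and 3124, 2730.0 and 202 in Cd44-/- tumors. Acp5, tartrate-resistant acid phosphatase, was at 6876, 166 and 168 CPM in Cd44+/+ and 5702, 2701 and 309.5 in Cd44-/- tumors. In No364, Ccl9 was at 192 CPM, against 32.7 and 31.3 in No316 and No368. Within the list, Ctsk and, slightly, Dcstamp were lower in No364 than in No316 and No368. Acp5, Mmp9, Oscar, Ocstamp, Calcr and Atp6v0d2 were higher in No364 than in these 2. Atp6v0d2, a proton pump subunit, was at 174, 17.3 and 18.5 CPM in Cd44+/+ and 324, 379 and 82.8 in Cd44-/- tumors. The 8 markers had 7 log2 fold changes above and 1 below 0 with a median of 0.88, beside 0.11 over all genes, and the part of these cells in the level of Ccl9 was not tested.

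**Figure D4:**
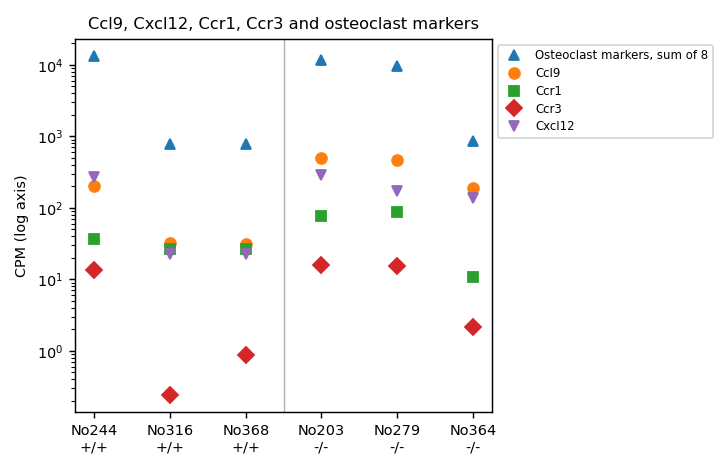
CPM on a log axis of Ccl9, Cxcl12, Ccr1, Ccr3 and the sum of 8 osteoclast markers in each tumor, Cd44+/+ left of the line. Ccr3 is above 13 CPM in No244, No203 and No279, the tumors in which the marker sum is at least 9676 CPM.

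Cxcl12 (ENSMUSG00000061353, chromosome 6 from 117168535 to 117181367, plus strand), the marrow stromal chemokine that retains stem cells and lymphocytes, was at 270.1 CPM in No244, 22.5 in No316 and 22.6 in No368 (Cd44+/+), and at 286 in No203, 174 in No279 and 136 in No364 (Cd44-/-). Again No316 and No368 were low and No244 lay within the range of the Cd44-/- tumors (log2 fold change 0.92, standard error 1.03, adjusted p = 0.74 by edgeR's quasi-likelihood test). Without No244 the log2 fold change was 3.13. Cxcr4, its signaling receptor, was at 13.5, 20.96 and 21.7 CPM in Cd44+/+ and 7.14, 37.04 and 11.04 in Cd44-/- tumors, with No203 lowest although its ligand was highest there (log2 fold change -0.02, standard error 0.66, adjusted p = 0.99 by edgeR's quasi-likelihood test). Ackr3, the atypical receptor that clears CXCL12, was at 15.5, 37.7 and 35.8 CPM in Cd44+/+ and 28.1, 78.9 and 7.90 in Cd44-/- tumors (log2 fold change 0.37, standard error 0.80, adjusted p = 0.879 by edgeR's quasi-likelihood test). The direction of Cxcr4 and Ackr3 was not stable, since Cxcr4 ranged within -1.04 to 0.32 and Ackr3 within -0.72 to 0.86 with each tumor left out in turn. Fibroblast and marrow stroma markers summed to 769.9, 1113 and 1092 CPM in Cd44+/+ and 458, 3811 and 429 in Cd44-/- tumors and were highest in No279.

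The promoters of this ligand and its receptors are shown because all 3 hold the CIRE, the short element through which the released intracellular domain of CD44 is thought to act on transcription. The windows are the 250 bases before the RefSeq start (GRCm38.p6), 5′ to 3′ on the strand of the gene, with CIRE matches (CCTGCG on either strand) in capitals.
Cxcl12, chr6:117168285-117168534, plus strand: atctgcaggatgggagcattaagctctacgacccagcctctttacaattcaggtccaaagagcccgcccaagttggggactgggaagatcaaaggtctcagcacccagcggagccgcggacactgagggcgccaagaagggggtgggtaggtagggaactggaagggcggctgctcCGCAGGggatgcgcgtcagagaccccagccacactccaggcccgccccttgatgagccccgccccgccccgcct
Cxcr4, chr1:128592300-128592549, minus strand: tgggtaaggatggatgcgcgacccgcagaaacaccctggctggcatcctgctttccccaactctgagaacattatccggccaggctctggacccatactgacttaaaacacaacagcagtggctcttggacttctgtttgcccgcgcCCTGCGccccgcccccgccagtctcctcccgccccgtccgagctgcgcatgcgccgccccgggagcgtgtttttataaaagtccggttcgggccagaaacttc
Ackr3, chr1:90203730-90203979, plus strand: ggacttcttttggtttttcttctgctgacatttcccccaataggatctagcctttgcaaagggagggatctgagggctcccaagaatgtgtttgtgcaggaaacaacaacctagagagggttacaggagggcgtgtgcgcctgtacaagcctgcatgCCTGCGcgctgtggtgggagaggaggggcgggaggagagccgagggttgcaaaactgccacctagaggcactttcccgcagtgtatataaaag
The element was found at the nearest start of 6 of the 42 members (Ackr3, Ccl27a, Cx3cl1, Cxcl12, Cxcl3 and Cxcr4). Over all RefSeq starts of a gene it was present for 7 of the 42 members, beside 15.8% of all 27025 genes, so the share of the members was near the background. The TRE, TGACTCA or TGAGTCA, was at the nearest start of 3 members (Ccl27b, Ccr3 and Ccr4) and at any start of 4, beside 5.16% of all genes. A match describes these letters only.

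Further ligands with high levels differed between tumors, and their genotypes overlapped. Cxcl16, a membrane-bound chemokine and scavenger receptor of macrophages, was at 12.4, 92.9 and 95.3 CPM in Cd44+/+ and 10.6, 61.5 and 49.2 in Cd44-/- tumors. No316 and No368 were highest, and No244 and No203 lowest (log2 fold change -0.73, standard error 0.89, adjusted p = 0.766 by edgeR's quasi-likelihood test). Zmynd15, which overlaps Cxcl16 on the opposite strand, was at 1.51, 35.4 and 34.2 CPM in Cd44+/+ and 1.55, 16.01 and 10.7 in Cd44-/- tumors, with No316 and No368 highest here too, and reads of the pair may be shared. Cxcr6, the receptor of CXCL16 on T and NKT cells, had another pattern, with 9, 19 and 9 counts in Cd44+/+ and 2, 304 and 54 in Cd44-/- tumors (log2 fold change 2.85, standard error 1.40, adjusted p = 0.491 by edgeR's quasi-likelihood test), and a log2 fold change of 1.27 without No279. Cxcl14, a chemokine of stroma and skin, was at 14.2, 40.6 and 43.4 CPM in Cd44+/+ and 9.52, 78.01 and 7.48 in Cd44-/- tumors, highest in No279 and lowest in No364, so that the Cd44-/- tumors enclosed the Cd44+/+ tumors (log2 fold change -0.05, standard error 0.96, adjusted p = 0.988 by edgeR's quasi-likelihood test). Ccl6, a macrophage and neutrophil chemokine related to Ccl9, had the narrowest spread of the 8 ligands with the highest mean CPM, at 10.3, 15.1 and 14.9 CPM in Cd44+/+ and 8.41, 11.5 and 21.98 in Cd44-/- tumors (log2 fold change 0.05, standard error 0.48, adjusted p = 0.972 by edgeR's quasi-likelihood test).

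Of the atypical receptors with more than a few counts, Ackr4 separated the genotypes. Ackr4 (ENSMUSG00000079355, chromosome 9 from 104084157 to 104126933, minus strand), which scavenges CCL19, CCL21 and CCL25, was at 38.7 CPM in No244, 41.5 in No316 and 40.2 in No368 (Cd44+/+), and at 21.6 in No203, 11.8 in No279 and 5.65 in No364 (Cd44-/-). Every Cd44-/- tumor lay below the Cd44+/+ tumors, and the means of 39.8 ± 1.56 CPM (SD, n = 2) for Cd44+/+ against 13.02 ± 8.05 CPM (SD, n = 3) for Cd44-/- differed by more than either SD (log2 fold change -1.62, standard error 0.52, adjusted p = 0.452 by edgeR's quasi-likelihood test). The log2 fold change stayed within -2.23 to -1.26 with each tumor left out in turn and was -1.62 (adjusted p = 0.818) with No316 and No368 summed. Exons of Acad11 overlap it on the opposite strand. Acad11 was at 174 CPM in No364, where Ackr4 was lowest, and at 9.07 to 15.5 elsewhere. Ackr2, a scavenger of inflammatory CC chemokines, was at 1.34, 1.56 and 2.02 CPM in Cd44+/+ and 1.23, 2.44 and 8.01 in Cd44-/- tumors, with No364 3.28 times as high as the next tumor (log2 fold change 1.24, standard error 0.80, adjusted p = 0.565 by edgeR's quasi-likelihood test). Ackr1, which binds many chemokines on red cells and venules, had 5, 4 and 5 counts in Cd44+/+ and 19, 14 and 15 in Cd44-/- tumors and was higher in each Cd44-/- tumor, at levels close to the limit of detection (log2 fold change 1.42, standard error 0.69, adjusted p = 0.491 by edgeR's quasi-likelihood test).

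Chemokines of lymphoid tissue and dendritic cells were scarce. Ccl22, a dendritic cell product that draws CCR4-bearing T cells, had 2, 10 and 4 counts in Cd44+/+ and 13, 37 and 48 in Cd44-/- tumors, so the genotypes did not overlap (log2 fold change 2.57, standard error 0.82, adjusted p = 0.452 by edgeR's quasi-likelihood test). Its sister ligand Ccl17 was counted 94 times in No364 and at most 8 times elsewhere, and their receptor Ccr4 had 5, 0 and 1 counts in Cd44+/+ and 0, 0 and 1 in Cd44-/- tumors. Ccr7, which guides dendritic and naive T cells to lymph nodes, was counted 58 times in No279 and 38 times in No364, against at most 8 counts in the other tumors. Of the CCR7 ligands, Ccl19 had 7, 1 and 0 counts in Cd44+/+ and 5, 0 and 11 in Cd44-/- tumors. Ccl21a had 18, 17 and 14 counts in Cd44+/+ and 9, 108 and 1 in Cd44-/- tumors, so that it was highest in No279 like Ccr7 but lowest in No364. Ccl21a, Ccl21b, Ccl27a and Ccl27b belong to a region of chromosome 4 with near-identical gene copies, and their counts are uncertain. Cxcl13, which forms B cell follicles, was at 2.77, 0.904 and 0.798 CPM in Cd44+/+ and 3.93, 0.429 and 3.93 in Cd44-/- tumors, and its receptor Cxcr5 at 1.85, 0.452 and 0.294 CPM in Cd44+/+ and 1.67, 0.0990 and 0.785 in Cd44-/- tumors, while B cell markers summed to 8.40, 2.95 and 3.23 CPM in Cd44+/+ and 2.10, 2.64 and 7.48 in Cd44-/- tumors. Cxcr3, the receptor of activated T cells, had 0, 13 and 5 counts in Cd44+/+ and 5, 16 and 15 in Cd44-/- tumors. Dendritic cell markers summed to 40.4, 37.99 and 37.5 CPM in Cd44+/+ and 27.6, 34.3 and 31.7 in Cd44-/- tumors. Zbtb46, which carried most of this sum in No244, No316, No368 and No203, was at 32.4, 24.5 and 23.7 CPM in Cd44+/+ and 20.7, 10.3 and 6.18 in Cd44-/- tumors. Itgax, the largest part of the sum in No279 and No364, was at 5.21, 10.9 and 10.7 CPM in Cd44+/+ and 4.32, 19.2 and 15.1 in Cd44-/- tumors. In all, 5 of the 6 markers had a log2 fold change above 0. Flt3, the receptor of a dendritic cell growth factor, was at 0.168, 0.382 and 0.378 CPM in Cd44+/+ and 0.436, 2.05 and 1.73 in Cd44-/- tumors, and Cd209a at 0.336, 0.348 and 0.630 CPM in Cd44+/+ and 0.753, 1.42 and 2.62 in Cd44-/- tumors. The part of these cells in the level of Ccl22 was not tested.

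The members tied to epithelia were low as well. Ccl25, the thymus and gut chemokine, was at 5.21, 1.29 and 1.26 CPM in Cd44+/+ and 3.05, 1.68 and 5.44 in Cd44-/- tumors, and its receptor Ccr9 had at most 8 counts. Ccl27a, related to skin homing, was at 7.23, 0.521 and 0.756 CPM in Cd44+/+ and 4.80, 1.82 and 8.79 in Cd44-/- tumors and Ccl27b at 3.19, 0.243 and 0.252 CPM in Cd44+/+ and 1.35, 0.594 and 3.72 in Cd44-/- tumors. Ccl28 was at 0.420, 0.765 and 0.588 CPM in Cd44+/+ and 0.476, 0.660 and 0.0523 in Cd44-/- tumors, and Ccr10, the receptor of CCL27 and CCL28, had 2, 12 and 24 counts in Cd44+/+ and 2, 4 and 2 in Cd44-/- tumors. Ccl20, a ligand of CCR6, had 3, 1 and 0 counts in Cd44+/+ and 1, 0 and 8 in Cd44-/- tumors, and Xcl1, the single C chemokine, 0, 2 and 1 counts in Cd44+/+ and 4, 6 and 21 in Cd44-/- tumors. Ccl24 was counted 35 times in No364 and at most 9 times in any other tumor. Ccr6 and Ccr8 had at most 2 counts per tumor and Ccl21b at most 8. Ccl26 and Cxcl17 had 0 counts in all tumors, which allows levels of up to 0.0990 to 0.252 CPM. Exons of Ackr1, Ccl25, Ccl27a, Ccr9, Cxcr5 and Xcl1 overlap those of another gene, and their counts are uncertain as well. In all, 19 of the 56 members did not pass the low-count filter. Kupffer cell markers, the macrophages of liver, summed to 0.420, 0.382 and 0.294 CPM in Cd44+/+ and 10.8, 1.06 and 123 in Cd44-/- tumors, and so No364, where Ccl17, Ccl24, Xcl1 and Ackr2 had their highest values, was also the tumor with liver markers, whose part in these values was not tested.

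The tumor with the highest level was counted for each member. No279 was the highest tumor for 14 of the 37 members tested, beside 21.5% of all genes tested. No364 was highest for 8 (25% of all genes), No203 for 5 (14.2%) and No244 for 2 (22.9%). No316 was highest for 4 (8.59%) and No368 for 4 (7.81%), together 8 members beside 16.4% of all genes. Both genotypes thus contributed peaks. Of the 37 highest values 27 came from Cd44-/- tumors, which also held the peaks of most genes tested (14.2% in No203, 21.5% in No279 and 25% in No364). Of the genes with their peak in No279, 8 encode ligands and 6 receptors. Ccl7 and Cx3cl1 were the 2 tested members at more than 5 times the second highest tumor there, beside 1.19% of all genes, and Cxcl5, with 13.2 times, was a further one that did not pass the filter.

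**Figure D5:**
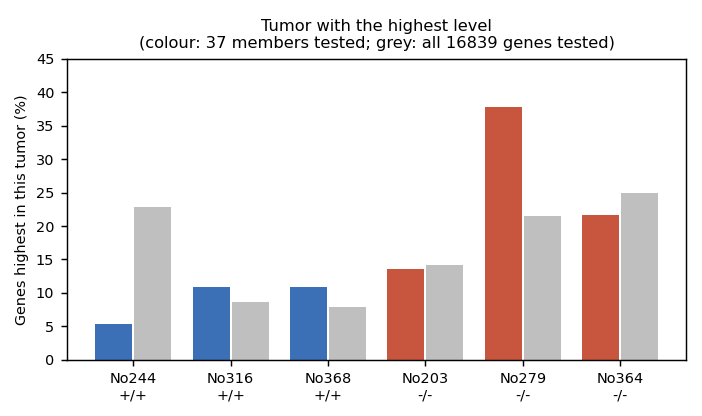
Share of genes (y axis, percent) that have their highest CPM in each tumor, for the 37 members tested (blue Cd44+/+, red Cd44-/-) and for all 16839 genes tested (grey). The bar of No279 stands for 14 members, the most of any tumor, and that of No244 for 2.

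Genes downstream of the receptors were summarized from lists. Of 33 listed chemokine signaling genes (G protein subunits, receptor kinases, arrestins, phosphoinositide 3-kinases, guanine exchange factors and Rac proteins), 31 were found and tested, and none passed the adjusted threshold of edgeR. At an unadjusted p under 0.05, 1 was higher and 2 were lower in Cd44-/- tumors, beside 6.44% and 4.31% of all genes. The fold change was above 0 for 11 and below 0 for 20, with a median of -0.15. Over all genes it was above 0 for 9277 and below 0 for 7562, with a median of 0.11. The genotypes were apart for 1 higher and 8 lower genes of the list, beside 9.49% and 9.57% of all genes. Of 19 genes that bind, process or present chemokines, 18 were tested and 0 were called, with 10 fold changes above and 8 below 0 and a median of 0.30. Dpp4, the protease that trims and inactivates many chemokines, was at 0.840, 0.626 and 0.588 CPM in Cd44+/+ and 3.93, 0.858 and 101 in Cd44-/- tumors, with its peak in the tumor that holds the liver markers. Ppbp, a platelet ligand of CXCR2, was at 0, 2.09 and 2.10 CPM in Cd44+/+ and 0.198, 16.3 and 4.08 in Cd44-/- tumors and Pf4, another platelet chemokine, at 0.672, 24.3 and 22.8 CPM in Cd44+/+ and 5.51, 3.86 and 3.09 in Cd44-/- tumors. In the signaling list the gene apart with higher values was Ptk2b, a kinase downstream of chemokine receptors, at 11.6, 12.2 and 11.9 CPM in Cd44+/+ and 30.5, 46.5 and 41.5 in Cd44-/- tumors (log2 fold change 1.73, standard error 0.32, adjusted p = 0.452 by edgeR). Arrb2, which ends receptor signaling, was among the genes apart with lower values, at 43.2, 58.3 and 56.2 CPM in Cd44+/+ and 24.9, 27.7 and 30.8 in Cd44-/- tumors (log2 fold change -0.92, standard error 0.29, adjusted p = 0.452 by edgeR). These genes were picked after their values had been seen. Blood endothelial markers, which mark the vessels on which chemokines are presented, summed to 379, 291 and 304 CPM in Cd44+/+ and 321, 389.8 and 98.3 in Cd44-/- tumors.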

How the data were processed

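RNA of 6 tumors was sequenced by the authors, demultiplexed (bcl2fastq 1.8.4), aligned to GRCm38 (HISAT2 2.0.2) and counted per Ensembl gene (featureCounts, Subread 2.0.0), per the labels and the study's methods. The deposited values are raw counts. Whether counting used strand or multi-mapping reads is not given in the sources used here, and therefore overlapping genes and near-identical copies are uncertain. Symbols and coordinates came from GENCODE M21 and promoters from RefSeq. CPM used TMM factors. Genotypes were compared in edgeR 4.0.16 (R 4.3.3, filterByExpr, quasi-likelihood test over all 6 libraries, Benjamini-Hochberg adjustment, threshold 0.05), which was tested on simulated counts. At the dispersion of these data (0.501) it recovered 1 of 200 simulated 4-fold changes and 155 of 200 simulated 16-fold changes. A member that was not called may therefore still differ. DESeq2 1.42.0, limma-voom 3.58.1, other scalings and filters, single tumors left out and No316 with No368 summed were alternatives. The members and lists were chosen with earlier results of these data known. Named with the value in every tumor were members without overlap of the genotypes, the 8 ligands and 5 receptors with the highest mean CPM, the 8 members with the largest SD of log2 CPM, and their ligands or receptors. Other members followed by family, and 1 member, which stays in the counts and sums, is not reported here. Tumor counts of 18076388 to 26954142 set the precision, and floors cover counting error only.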

Additional observations from a re-analysis of the deposited data

How the results depend on the processing

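Size factors of DESeq2 and the removal of mitochondrial genes changed neither a direction nor a count of members by more than 1.5 times. With library size alone, 1 member was lower at an unadjusted p under 0.05 (beside 2.26% of all genes). In this setting 5 were apart with higher values (beside 7.94%) and 0 with lower values (beside 4.55%). The log2 fold change turned to -0.18 for Ccl6, -0.19 for Ccl12 and 0.61 for Ccl11. Without a low-count filter, 7 members of 54 were higher at an unadjusted p under 0.05 (beside 6.72% of all genes). Apart were 5 higher (beside 7.99%) and 2 lower (beside 7.5%). With at least 10 counts in every tumor, which left 19 members, 2 were higher (beside 6.43% of all genes). None was apart higher (beside 9.8%), and the receptor median was 0.17. DESeq2 called 2 members at an adjusted p under 0.05 (beside 2.33% of all genes) and 13 higher at an unadjusted one (beside 6.25%). limma-voom gave 2 higher (beside 3.51%) and 1 lower (beside 5.64%), with a log2 fold change of -0.14 for Ccl6, -0.10 for Ackr3 and 0.97 for Ccl11. With No316 and No368 summed, 1 member was lower (beside 2.45%), the ligand median was 0.43, and the log2 fold change was 0.16 for Cxcl14 and 0.0666 for Cxcr4.

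With each tumor left out in turn, 0 members passed the adjusted threshold of edgeR. Members higher at an unadjusted p under 0.05 numbered 3 to 10 (beside 1.89% to 9.79% of all genes). Those lower numbered 1 to 3 (beside 2.41% to 7.77%). Members apart numbered 3 to 13 (higher, beside 10.6% to 19.9%) and 1 to 6 (lower, beside 10.1% to 19.8%). The ligand median was 0.44 to 1.68, lowest without No368 and highest without No244, and the receptor median 0.55 to 1.11. The log2 fold change included both signs for Ackr3 (-0.72 to 0.86), Ccl11 (-0.67 to 2.30), Ccl12 (-0.47 to 0.64), Ccl6 (-0.43 to 0.29), Cxcl14 (-1.95 to 0.42) and Cxcr4 (-1.04 to 0.32).

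The 3 settings of DESeq2 listed here were added after the data had been seen. With No316 and No368 summed, 1 member was called (beside 0.797% of all genes) and 0 were lower at an unadjusted p under 0.05 (beside 3.18%). The ligand median was 0.43, and the log2 fold change was 0.15 for Cxcl14 and 0.0584 for Cxcr4. Without No279, 1 member was called, Cxcl1, beside 6.32% of all genes, and Ackr3 was at -0.73. Without No364, 4 members were called (Cxcl5, Cxcl1, Ccr1 and Ccl2), beside 2.36% of all genes. The call of Cxcl5 rests on No279 alone, since all other tumors of this setting had 0 counts. At an unadjusted p under 0.05, 11 members were higher (beside 4.78%). The ligand median was 0.37, and the log2 fold change was 0.41 for Cxcl14, -0.44 for Ccl6, 0.23 for Cxcr4 and 0.29 for Ccl11. The cause of these changes was not tested. No paired analysis was possible because the replicate numbers are mouse numbers and the genotypes share none.

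The common biological coefficient of variation was 0.708 over the 6 libraries. The standard errors beside the fold changes were computed per gene, as the absolute log2 fold change over the square root of its quasi-likelihood F statistic. Counts of 3 or fewer, as for many lymphoid and epithelial members, do not show absence.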

Other observations

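Neighbouring chemokine genes had their highest level in the same tumor in some clusters and in different tumors in others. On chromosome 5, Cxcl5, Cxcl3, Cxcl15, Cxcl1 and Cxcl2 were all highest in No279. On chromosome 11, so were the neighbours Ccl2 and Ccl7, whereas Ccl11 was highest in No244, Ccl12 in No316 and Ccl8 in No203. In the receptor cluster on chromosome 9, Cxcr6, Ccr1 and Ccr2 were highest in No279 and Ccr3 in No203. In the cluster of Ccl5, Ccl9, Ccl6, Ccl3 and Ccl4, also on chromosome 11, Ccl5 was highest in No279, Ccl9 in No203, Ccl6 in No364 and both Ccl3 and Ccl4 in No368. On chromosome 8, Ccl22 and Ccl17 were highest in No364 and Cx3cl1, which lies between them, in No279. These are values of single tumors without a test.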
